A study of Tuber melanosporum with 9 samples.

Results

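The genes described here are the 150 genes of the black truffle *Tuber melanosporum* whose RNA was raised most in mycelium grown with 5-azacytidine (5-aza), relative to untreated mycelium. They were chosen among 7496 genes by their read counts. A gene had to have at least 100 reads in the treated and untreated libraries together and to lie outside 13 scaffolds that the rule leaves out, which kept 6558 genes (the tested genes). Its level in the fruiting body (FB) had to stay within 8-fold, and its level in free-living mycelium (FLM) within 4-fold, of untreated mycelium, which kept 5037 genes. Levels are reads per 1000000 reads on genes (RPM), with 1 added to each level for the ratio, and 374 of these genes (7.43%) had a treated level at least 1.5 times the untreated level. The 150 largest ratios were taken.

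The series held RNA libraries of treated mycelium, FB, FLM and untreated mycelium, and bisulfite libraries, which read DNA methylation, of the same 4 and of ectomycorrhizal root tips (ECM), 1 library for each. Treated mycelium was the wild-type isolate Tmel28 (strain Mel28) in liquid medium with 5 g/L glucose in the dark at 23 °C, given 5-aza in water to 100 µM at intervals of 5 days over 45 days, the last time 24 h before harvest, and untreated mycelium was the same isolate given water. FLM was the same strain on malt agar, FB was 1 mature fruiting body, and ECM tips came from inoculated hazel plantlets and hold host tissue as well. FLM therefore differs from the treated and untreated pair in culture medium, and FB in growth, stage and source together. The paper also gives another culture time for FLM than for the pair. DNA extraction and bisulfite read length of FB, FLM and ECM differed from those of the pair as well. There were no replicates, so no difference between conditions was tested, and intervals cover counting error only. In such bulk samples fewer expressing cells and less RNA per cell cannot be told apart.

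5-Azacytidine is a cytidine analogue. Once built into DNA it traps cytosine-5 methyltransferases, so that methylation is lost as DNA is copied, and it is also built into RNA. In truffle, as in many filamentous fungi, methylated cytosines lie mainly in transposable elements (TEs) and little in genes. Neither the tables nor the reference annotation used here give product names, so no function is stated for the 150 genes, and they are named by their gene model identifiers.

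Reads on genes numbered 21802480 in treated mycelium, 23397373 in FB, 23816308 in FLM and 22446163 in untreated mycelium. Mean bisulfite depth per listed cytosine was 8.64 reads in treated mycelium, 20.1 in FB, 19.9 in FLM, 1.35 in ECM and 7.35 in untreated mycelium. Genome-wide levels were taken over each library's own cytosines with at least 4 reads. The CHH level (H is any base but G) was 8.81% in treated and 9.92% in untreated mycelium. The CHG level was 7.26% in treated and 8.34% in untreated mycelium, and the CG level 26.4% in treated and 25.3% in untreated mycelium. These sets of cytosines differ, with 6594758 CG sites in treated and 6147635 in untreated mycelium. The higher CG value in treated mycelium therefore does not show a gain of CG methylation. Over cytosines shared by these libraries, the paper gives nearly equal CG levels, with CHG and CHH levels lower in treated mycelium.

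The rule used the RNA values that follow, and they are given as a description. The ratio of treated to untreated mycelium ran between 1.89 and 16.1 over the 150 genes, with a median of 2.38, whereas the median over all tested genes was 1.02. It was at least 8 in 4 genes, between 4 and 8 in 20, between 3 and 4 in 20, between 2 and 3 in 74 and under 2 in 32. For reference, 8.46% of the tested genes were raised at least 1.5 times and 6.91% were lowered by as much. Within the FB and FLM windows, 374 genes were raised and 208 lowered by that factor. That split depends on the scaling: with libraries scaled by the median of gene ratios it became 295 raised and 292 lowered. All 150 genes kept a ratio of at least 1.5 under that scaling, with a lowest value of 1.80.

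**Figure D1:**
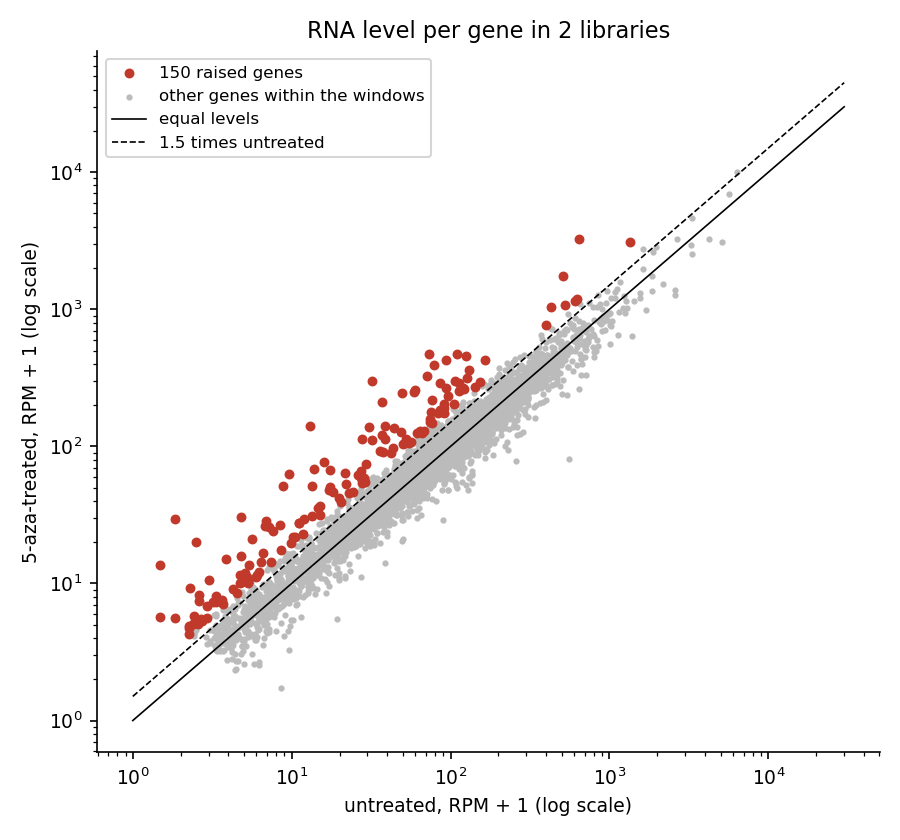
RNA level per gene in treated mycelium (vertical axis) and untreated mycelium (horizontal axis), in RPM plus 1, both on log scales. Red points are the 150 raised genes, grey points the other genes within the FB and FLM windows, the solid line marks equal levels and the dashed line 1.5 times the untreated level. The raised genes lie between 0.490 and 1337 RPM in untreated mycelium, with a median of 55.5 RPM in treated and 20.0 in untreated mycelium.

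The raised genes were expressed at low levels without the drug. Their median untreated level was 13.5 RPM per kb of gene length, against 41.7 over tested genes, and 114 of the 150 lay under the tested median. In treated mycelium their median was 33.9 RPM per kb, against 43.0 over tested genes, so that 83 of the 150 were still under the tested median of that library. Read support was uneven: 82 genes had at least 1000 treated reads, whereas 39 had fewer than 100 untreated reads. The exact 95% interval of the plain ratio, without the added 1, had a lower bound of at least 1.62 in each of the 150 genes.

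GSTUMT00004482001, on scaffold 12 from 1038968 to 1040602, had the largest ratio. Its reads numbered 627 in treated mycelium, 122 in FB, 130 in FLM and 19 in untreated mycelium. The plain ratio of treated to untreated was 34.0 (95% interval 21.6 to 56.8) and that with 1 added 16.1. It was thus low in untreated mycelium even beside FLM and FB. GSTUMT00004570001, on scaffold 13, had 140.1 RPM in treated mycelium, 1.97 in FB, 8.86 in FLM and 12.0 in untreated mycelium, a ratio of 10.8. GSTUMT00002601001, on scaffold 138, had 298.4 RPM in treated mycelium, 3.12 in FB, 39.6 in FLM and 31.1 in untreated mycelium, a ratio of 9.33. In both genes the treated library was far above the other 3, and FB was the lowest. GSTUMT00008986001, on scaffold 50, had 275 reads in treated mycelium, none in FB, 35 in FLM and 11 in untreated mycelium, and its plain ratio of 25.7 had a 95% interval of 14.2 to 52.2.

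GSTUMT00010369001 was the exception among the leading genes, since its FB level equalled its treated level. It had 19.0 RPM in treated mycelium, 19.0 in FB, 1.01 in FLM and 1.51 in untreated mycelium. Its FB level plus 1 was 7.94 times the untreated one, just inside the 8-fold window. Ranks 6 to 8 followed. GSTUMT00005539001 reached 61.8 RPM in treated mycelium against 6.45 in FB, 3.61 in FLM and 8.55 in untreated mycelium. For GSTUMT00004681001 the levels were 470.1 RPM in treated mycelium, 28.1 in FB, 28.5 in FLM and 71.6 in untreated mycelium. GSTUMT00012011001 stood at 29.8 RPM in treated mycelium, 0.513 in FB, 1.68 in FLM and 3.83 in untreated mycelium. All 3 were lowest in FB or FLM and highest in treated mycelium, with ratios between 6.37 and 6.57.

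Further down the leading 20, some genes were also high in a stage without the drug. In GSTUMT00004615001 (50.5 RPM in treated mycelium, 26.4 in FB, 29.7 in FLM and 7.84 in untreated mycelium) both stages lay above untreated mycelium. GSTUMT00000137001 (76.6 in treated mycelium, 50.5 in FB, 16.4 in FLM and 15.1 in untreated mycelium) and GSTUMT00008228001 (474.6 in treated mycelium, 407.8 in FB, 63.5 in FLM and 108.5 in untreated mycelium) were raised in FB as well. In GSTUMT00000631001 (389.9 in treated mycelium, 55.8 in FB, 238.8 in FLM and 77.9 in untreated mycelium) and GSTUMT00007384001 (137.8 in treated mycelium, 4.45 in FB, 110.8 in FLM and 29.8 in untreated mycelium) the agar-grown FLM was the next highest library. In GSTUMT00010778001, GSTUMT00000401001, GSTUMT00009371001, GSTUMT00011981001, GSTUMT00002304001 and GSTUMT00006418001, the treated level plus 1 was between 3.25 and 4.98 times that of the highest other library, so that treated mycelium stood alone.

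**Figure D2:**
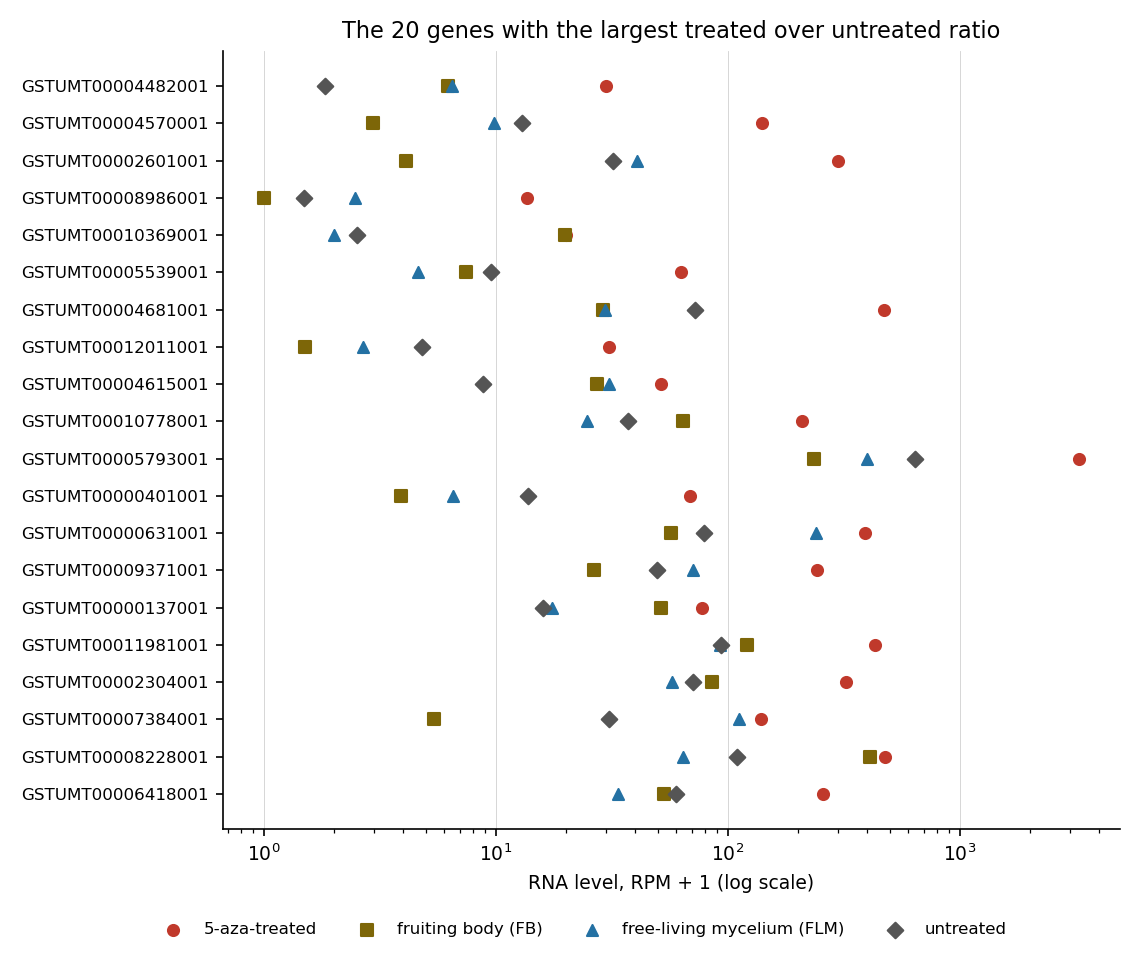
RNA level of the 20 genes with the largest ratio, in RPM plus 1 on a log scale, 1 point per library: red circles for treated mycelium, brown squares for FB, blue triangles for FLM and grey diamonds for untreated mycelium. Treated mycelium is the rightmost point in each row, and in GSTUMT00010369001 the FB point covers it.

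GSTUMT00005793001, rank 11, carried the most reads. It lies on scaffold 20 between 1079329 and 1081593 and had 71193 reads in treated mycelium, 5473 in FB, 9510 in FLM and 14417 in untreated mycelium. In RPM this was 3265 in treated mycelium, 233.9 in FB, 399.3 in FLM and 642.3 in untreated mycelium, a ratio of 5.08. No other gene of the list had more reads in treated mycelium. GSTUMT00008827001, on scaffold 5, had 67974 reads in treated mycelium, 82455 in FB, 21234 in FLM and 30001 in untreated mycelium, so that FB exceeded treated mycelium. GSTUMT00006417001, on scaffold 26, had 37872 reads in treated mycelium, 7810 in FB, 5686 in FLM and 11486 in untreated mycelium. GSTUMT00008041001 (25976 reads in treated mycelium, 7873 in FB, 28055 in FLM and 13926 in untreated mycelium) was about equally high in treated mycelium and FLM. GSTUMT00006175001 had 24868 reads in treated mycelium, 14547 in FB, 19738 in FLM and 13531 in untreated mycelium. These 5 genes took 37.7% of the reads on the 150 genes in treated and 36.9% in untreated mycelium.

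Together the 150 genes took 2.77% of gene reads in treated mycelium, 1.66% in FB, 1.07% in FLM and 1.01% in untreated mycelium, with exact 95% intervals within 0.01 points of each share. The share in treated mycelium was 2.75 times that in untreated mycelium. Without GSTUMT00005793001 the shares were 2.44% in treated and 0.944% in untreated mycelium.

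The end of the list was dense. GSTUMT00009210001, GSTUMT00002937001 and GSTUMT00012173001 were the last ones inside, with ratios of 1.890, 1.889 and 1.886. GSTUMT00001661001, GSTUMT00003194001 and GSTUMT00003825001 came next and were left out at 1.883, 1.882 and 1.877. Another 224 genes passed the 1.5-fold minimum without entering the list. A further 181 tested genes were raised at least 1.5 times but lay outside the FB or FLM windows, and 67 of them would have been in the list had no window been set. The largest of these, GSTUMT00004037001, had 158.7 RPM in treated mycelium, 882.6 in FB, 510.0 in FLM and 9.09 in untreated mycelium.

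Levels in the stages varied widely within the limits that the rule set. The ratio of FB to untreated mycelium ran between 0.128 and 7.94, with a median of 1.10 against 0.820 over the genes within the windows, and that of FLM to untreated mycelium between 0.252 and 3.98, with a median of 0.785 against 0.616. FB was at least 1.5 times untreated mycelium in 60 of the 150 genes (40%), where the background was 21.9%, and FLM in 33 (22.0%), where the background was 10.1%. Untreated mycelium is the denominator of these ratios and of the rule, so a low untreated value raises all of them together. Treated mycelium was the highest of the 4 libraries in 111 of the 150 genes, FB in 30 and FLM in 9. For 39 of the genes raised by 5-aza, then, a library without the drug stood higher. Of the genes within the windows, 32.0% had treated mycelium as the highest. The rule favours this order, since it took the largest ratios of treated to untreated mycelium and bounded FB and FLM.

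Of 5 truffle genes related to the DNA methylation pathway of *Neurospora*, none was among the 150. The list holds 150 of 6558 tested genes, so none among 5 genes says little. TmelDnmt2 (GSTUMT00003328001), a putative DNA methyltransferase, had 101.3 RPM in treated mycelium, 28.3 in FB, 23.9 in FLM and 110.9 in untreated mycelium. The homolog of DIM-5 (GSTUMT00003241001), in *Neurospora* the histone H3 lysine methyltransferase upstream of DNA methylation, had 53.4 in treated mycelium, 275.8 in FB, 87.0 in FLM and 62.2 in untreated mycelium. That of HP1 (GSTUMT00000912001), which binds the mark DIM-5 makes, had 248.3 in treated mycelium, 56.3 in FB, 158.3 in FLM and 309.8 in untreated mycelium. Their ratios of treated to untreated mycelium, 0.914, 0.861 and 0.802, were all below 1. The homolog of DMM-1 (GSTUMT00000976001), which in *Neurospora* limits the spread of methylation, had 124.7 in treated and 117.0 in untreated mycelium, a ratio of 1.07. That of the phosphatase PP1 (GSTUMT00009673001) had 371.3 in treated and 298.1 in untreated mycelium, a ratio of 1.24. It lies on a scaffold outside the rule, so it could not be listed either. The ratios thus stayed between 0.802 and 1.24.

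DNA methylation was not used by the rule. For a gene, the level is the mean over its cytosines with at least 4 reads (at least 1 in ECM), with 4 such cytosines required. Where treated and untreated values of single genes or elements, or shares of genes over 10%, are given below, they were taken over cytosines read at least 4 times in both of these libraries, as were all values of elements, whereas median levels over gene bodies and flanks used each library's own cytosines. The bodies of the 150 genes were almost free of methylation in every library with enough depth. The median CG level was 0.323% in treated mycelium, 0.469% in FB, 0.272% in FLM and 0.315% in untreated mycelium, where the tested genes had 0.309% in treated mycelium, 0.485% in FB, 0.268% in FLM and 0.333% in untreated mycelium. In CHH context the medians were 0.293% in treated mycelium, 0.467% in FB, 0.254% in FLM and 0.270% in untreated mycelium, and in CHG context they were 0.280% in treated mycelium, 0.473% in FB, 0.257% in FLM and 0.280% in untreated mycelium. Of these 4 libraries FB had the highest median in each context, over the 150 genes as over the tested genes. Within each library the medians were close to each other across contexts, whereas genome-wide levels in FB were 28.9% CG and 10.3% CHH. How far unconverted cytosines and read errors make up such low levels was not tested, so small differences between libraries need not be methylation. No body of the 150 genes reached 10% in any context in treated mycelium, FB, FLM or untreated mycelium, where 0.214% of the tested genes did so in CG, 0.122% in CHG and 0.153% in CHH context in untreated mycelium.

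The bodies with the highest untreated CG levels were still close to zero. GSTUMT00004246001 had 0.207% in treated mycelium, 0.768% in FB, 0.184% in FLM and 1.02% in untreated mycelium. GSTUMT00010373001 had 0.512% in treated and 0.951% in untreated mycelium. In GSTUMT00002978001 the level was 0.199% in treated and 0.831% in untreated mycelium, and in GSTUMT00012158001 0.482% in treated and 0.718% in untreated mycelium. The fifth was GSTUMT00004570001, the gene with the second largest RNA ratio, at 0.00% in treated and 0.695% in untreated mycelium over 65 CG sites. All 5 were lower in treated mycelium, which picking them by their untreated value favours.

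Between treated and untreated mycelium, the bodies differed by no more than 0.926 points in any context. At cytosines read at least 4 times in both libraries, the median difference over the 150 genes was -0.0012 points in CG, 0.0007 in CHG and 0.014 in CHH context, and 75, 71 and 70 genes were lower in treated mycelium. Those are 50.0%, 47.3% and 46.7% of the genes, where 53.5%, 48.7% and 50.4% of the tested genes were lower. No gene of the list, and no tested gene, changed by 10 points.

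The 1 kb on each side of the genes held little more. Median flank levels were 0.314% CG in treated mycelium, 0.559% in FB, 0.282% in FLM and 0.371% in untreated mycelium, and the CHH medians were 0.316% in treated mycelium, 0.540% in FB, 0.268% in FLM and 0.312% in untreated mycelium. At shared cytosines, the CG level was lower in treated mycelium in 94 of the 150 flanks (62.7%, against 53.8% over tested genes), with a median difference of -0.064 points against -0.023. In CHG context 83 flanks (55.3%) were lower in treated mycelium, against 52.8% over tested genes. In CHH context 75 flanks (50.0%) were lower in treated mycelium, against 52.4% over tested genes. A difference of at least 1 point in CHH level was found in 2 of the 150 flanks (1.33%) and in 243 of 6552 tested flanks (3.71%), all differences staying under 10 points.

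**Figure D3:**
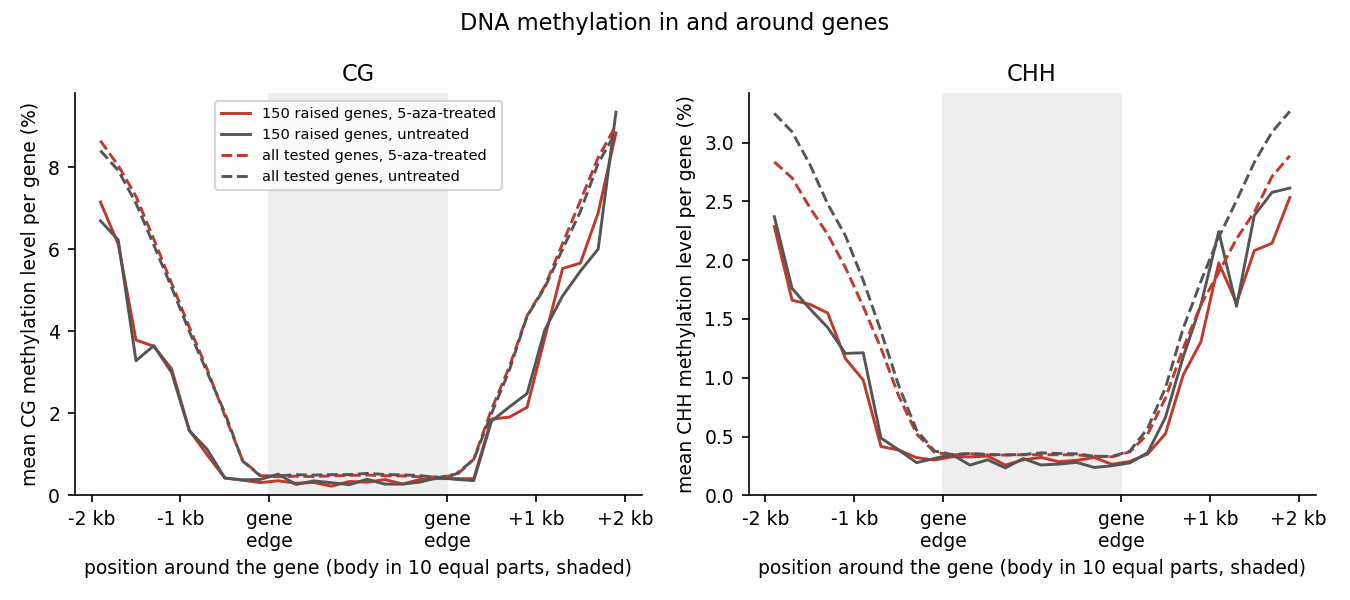
Mean methylation level per gene (vertical axis, percent) in CG context (left) and CHH context (right) across 2 kb before the gene, the gene body in 10 equal parts (shaded) and 2 kb after it, in steps of 200 bases outside the body. Red lines are treated and grey lines untreated mycelium, solid lines the 150 raised genes and dashed lines all 6552 tested genes with coordinates. Before and after follow the scaffold coordinates, since strand was not used, so each side mixes upstream and downstream regions. Levels are near 0 in the body and climb with distance. In CHH context the treated lines lie below the untreated ones over most of the 2 kb on each side of the gene. This holds for the raised genes as for all tested genes.

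A single gene of the list had flanks over 10% CG in untreated mycelium, where 2.20% of the tested genes did, and none reached 10% in CHG or CHH context, where 0.626% and 0.977% did. GSTUMT00000731001, on scaffold 215 from 112199 to 113945, had flank CG levels of 16.3% in treated mycelium, 16.8% in FB, 17.3% in FLM and 17.3% in untreated mycelium. Its flank CHH levels were 7.11% in treated mycelium, 6.82% in FB, 8.09% in FLM and 9.06% in untreated mycelium, a fall of 1.96 points in treated mycelium that was the largest of the list. Its RNA had 341 reads in treated mycelium, 1 in FB, 41 in FLM and 126 in untreated mycelium. The body was at 0.418% CG in treated and 0.467% in untreated mycelium, but at 30.8% in ECM, where 37 of 123 reads at 99 CG sites were methylated. It was the 1 gene of the 150 over 10% there, at a depth of about 1 read per site, where 23 of 6524 tested genes (0.353%) were. ECM holds host tissue as well, and the origin of these reads was not tested.

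The next falls in flank CHH level were smaller. GSTUMT00011981001, rank 16 by RNA ratio, had 3.71% in treated mycelium, 7.87% in FB, 7.81% in FLM and 5.25% in untreated mycelium, and a Tc1/Mariner element 186 bases away. In GSTUMT00008833001 the flank CHH level was 3.67% in treated and 4.61% in untreated mycelium, in GSTUMT00005914001 3.03% in treated and 3.94% in untreated mycelium, and in GSTUMT00000898001 1.09% in treated and 1.82% in untreated mycelium. Gains stayed at or under 0.283 points, in GSTUMT00009250001, GSTUMT00006312001, GSTUMT00011890001, GSTUMT00005818001 and GSTUMT00002979001. GSTUMT00000002001 was noticed after its values were seen. Its flank CG level was 0.450% in treated and 0.526% in untreated mycelium, over the cytosines these libraries share. Over their own cytosines it was 16.8% in FB and 5.35% in FLM. The sets of cytosines differ, so stage and coverage cannot be told apart here. A Gypsy element 414 bases away, which reaches into the flank, had 57.6% CG in treated and 58.7% in untreated mycelium. The RNA of the gene had 784 reads in treated mycelium, 2383 in FB, 1267 in FLM and 318 in untreated mycelium.

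The share of raised genes near a TE was no larger than that of the tested genes. A classified TE overlapped 1 of the 150 genes (background 2.06%) and lay within 1 kb of 20 (13.3%, background 15.5%). The median distance to the nearest CG site methylated in at least 50% of reads in both libraries was 8708 bases, against 6864 over tested genes. Such a site lay inside none of the 150 genes (background 0.458%) and within 1 kb of 7 (4.67%, against 9.95% over tested genes). Low expression moved with this measure. Among the 25% of tested genes with the lowest untreated level per kb, 4 of 97 raised genes (4.12%) lay within 1 kb of such a site, against 7.26% of all genes in that class.

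The overlapping pair was GSTUMT00001251001 and a Tc1/Mariner element of 228 bases on scaffold 268. The gene had 3834 reads in treated mycelium, 6545 in FB, 3632 in FLM and 1665 in untreated mycelium, a ratio of 2.35, and the element 29 reads in treated mycelium, 63 in FB, 13 in FLM and 27 in untreated mycelium. Reads on the element were thus similar in number with and without 5-aza. All of the element lies within the gene, so its own transcription cannot be told apart from that of the gene. The CG level of the element was 0.476% in treated and 0.50% in untreated mycelium.

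Elements within 1 kb numbered 20, 1 of them shared by the neighbours GSTUMT00002988001 and GSTUMT00002989001. Reads on them summed to 66 in treated and 44 in untreated mycelium, and 8 of the 20 had a read in treated against 4 in untreated mycelium. Of the 1169 elements near tested genes, 456 had a read in treated and 413 in untreated mycelium. Reads on these summed to 46545 in treated and 51039 in untreated mycelium, so they went the other way. Most reads on the 20 elements fell on the one inside GSTUMT00001251001 (29 in treated and 27 in untreated mycelium) and one 52 bases from GSTUMT00008822001 (24 and 12). The median CG level of the 20 elements was 35.9% in treated and 38.3% in untreated mycelium over the 16 with enough sites. Of these 16, 9 (56.3%) were over 10% in untreated mycelium, against 57.9% over the elements near tested genes. Over all 20 elements, 12 (60%) had a lower CHH level in treated mycelium, with a median difference of -0.33 points, against 74.4% and -1.46 points near tested genes. Of the 12 with an untreated CHH level of at least 5%, 10 (83.3%) were lower in treated mycelium, by a median over the 12 of -2.28 points, against 90.4% and -3.22 points for the 740 such elements near tested genes. An example is the element near GSTUMT00005914001, with a CHH level of 26.2% in treated and 31.4% in untreated mycelium and no read in either RNA library.

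DNA depth was compared as well. The depth of a gene in each bisulfite library was divided by the mean over tested genes. The ratio of treated to untreated mycelium had a median of 0.995 over the 150 genes, against 1.00 over tested genes, and 143 of the 150 lay within 1.2-fold of 1, as did 6305 of 6552 tested genes. The extremes were GSTUMT00006313001 at 0.756 and GSTUMT00004258001 at 1.38, which had 99 and 100 RNA reads in treated mycelium. No gene of the list reached a depth ratio of 1.5, and 11 of the 6552 tested genes did.

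**Figure D4:**
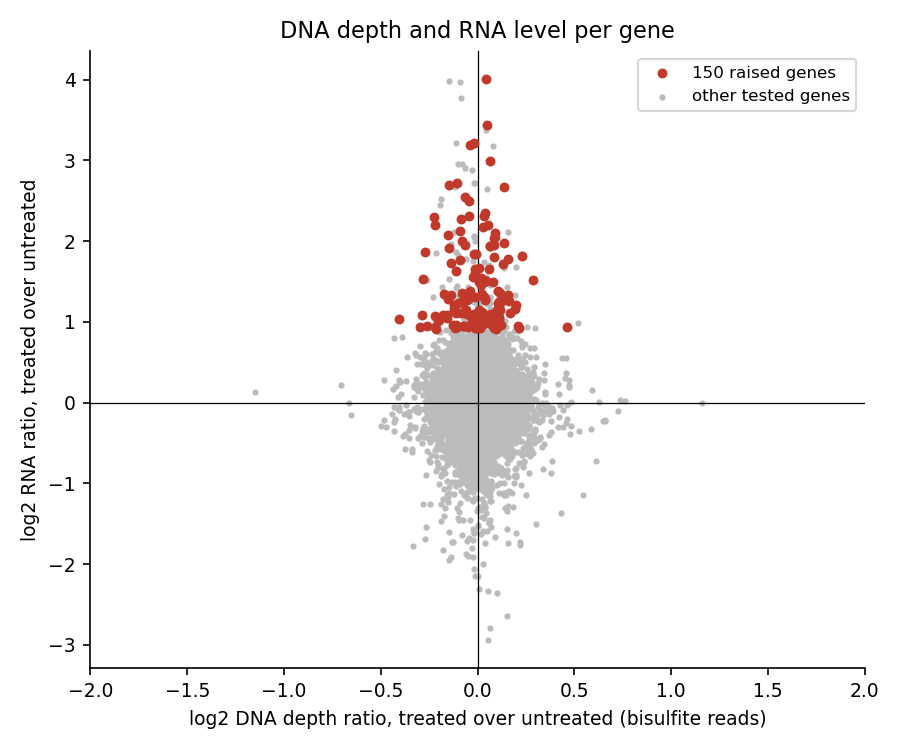
Ratio of treated to untreated mycelium for DNA depth (horizontal axis, log2) and for RNA (vertical axis, log2), 1 point per gene, with the 150 raised genes in red and the other tested genes in grey. The raised genes sit in a column around 0 on the DNA axis, between ratios of 0.756 and 1.38.

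The raised genes lay on 92 scaffolds, 61 of which held a single one, and some were neighbours. In gene order, 21 of the 150 (14%) stood directly next to another gene of the list, where 3.62% of the tested genes outside the list stood next to one. They formed 11 adjacent pairs in 10 groups. The share exceeded the background also with the next gene required within 5 kb (12.0% against 2.16%) and, less so, within 10 genes either way (34.7% against 26.4%). The untreated level is part of the rule. Among the 25% of tested genes with the lowest untreated level per kb the shares were 12.4% of 97 raised genes against 4.64% of all genes in that class.

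The largest group was on scaffold 50, with GSTUMT00008984001, GSTUMT00008985001 and GSTUMT00008986001 in a row, at ratios of 3.14, 2.83 and 9.14. The middle gene had 6536 reads in treated mycelium, 825 in FB, 8921 in FLM and 2362 in untreated mycelium, and the first 559 in treated mycelium, 13 in FB, 122 in FLM and 168 in untreated mycelium. All 3 were lowest in FB, and the genes on either side of the group had ratios of 0.922 and 1.08. On scaffold 14, GSTUMT00004614001 and GSTUMT00004615001 had ratios of 4.02 and 5.82. The gene before them, GSTUMT00004613001, ended 22 bases before GSTUMT00004614001 and had a ratio of 4.14, but fell outside the FLM window. This stretch was thus 3 genes long as well.

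On scaffold 26, GSTUMT00006417001 and GSTUMT00006418001 lay 21 bases apart, with 37872 and 5585 reads in treated mycelium against 11486 and 1319 in untreated mycelium. On scaffold 119, GSTUMT00001659001 and GSTUMT00001660001 were 10 bases apart, with 2623 and 6346 reads in treated mycelium against 806 and 1893 in untreated mycelium. The next genes, GSTUMT00001661001 and GSTUMT00001662001, had ratios of 1.88 and 1.75 and were outside the list. The counting is not stated to use strand, and the part of transcription through such short gaps was not tested. On scaffold 75, GSTUMT00010777001 and GSTUMT00010778001 were 1427 bases apart, with ratios of 3.82 and 5.63. That both genes of a pair were higher in treated mycelium follows from the rule.

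The remaining pairs had lower ratios. On scaffold 154 there were 2 of them, GSTUMT00002978001 with GSTUMT00002979001 (1.90 and 2.11) and GSTUMT00002988001 with GSTUMT00002989001 (2.81 and 1.91, 69 bases apart). GSTUMT00002937001 and GSTUMT00002938001 on scaffold 149 (1.89 and 2.30) were followed by GSTUMT00002939001, which had 47209 reads in treated mycelium, 187 in FB, 16144 in FLM and 10082 in untreated mycelium, a ratio of 4.81, and was kept out by the FB window. GSTUMT00003469001 with GSTUMT00003470001 on scaffold 173 (2.32 and 1.98) and GSTUMT00006312001 with GSTUMT00006313001 on scaffold 25 (2.55 and 2.06) complete the set. Over all 232 tested genes next to a raised gene and outside the list, 29 (12.5%) were raised at least 1.5 times, against 6.32% of all tested genes outside the list, and their median log2 ratio was 0.09 against 0.03 over tested genes.

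**Figure D5:**
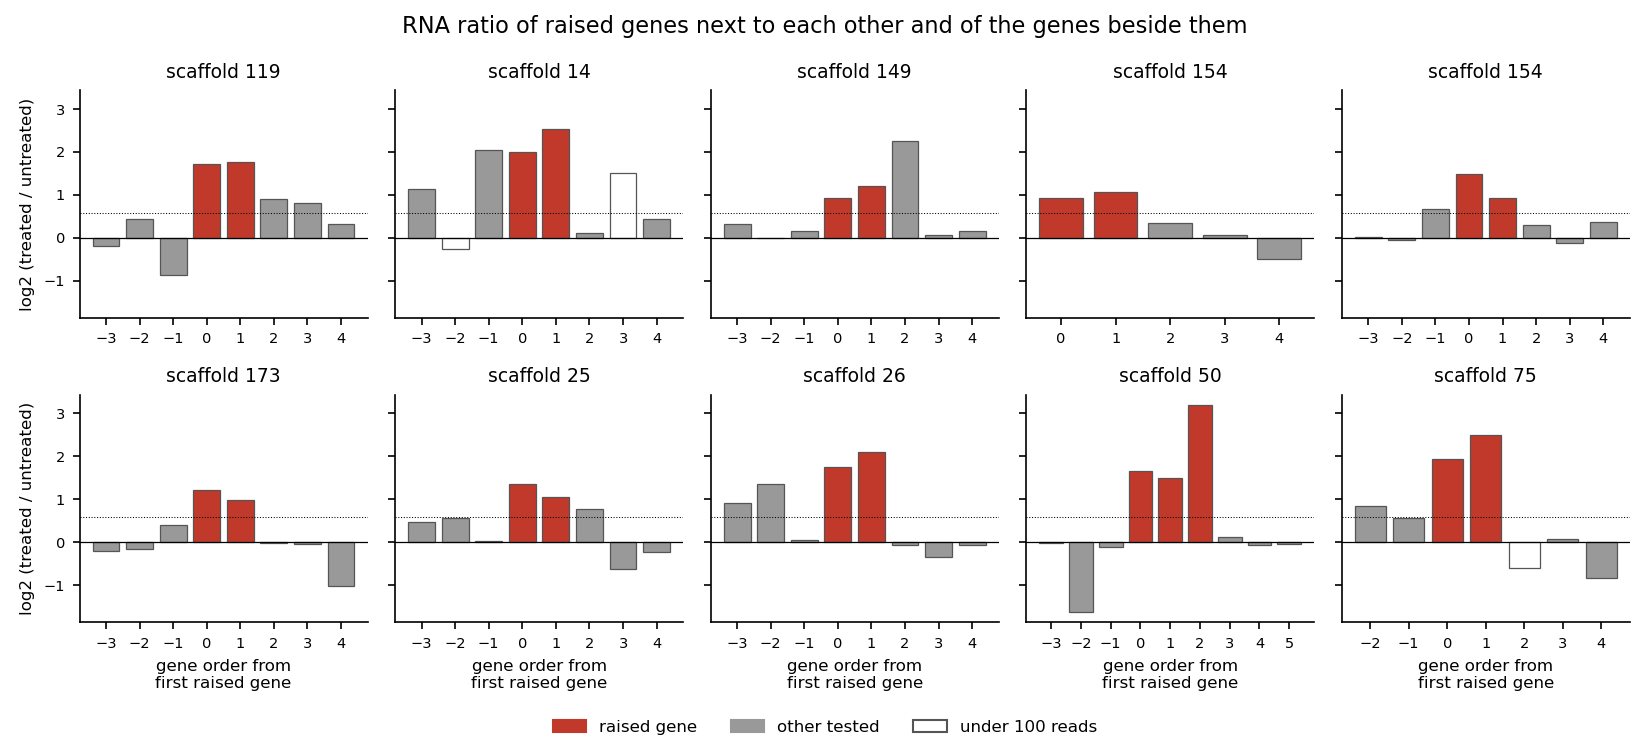
Ratio of treated to untreated RNA (log2, vertical axis) in gene order around the 10 groups of adjacent raised genes, position 0 being the first raised gene of a group. Red bars are genes of the list, grey bars other tested genes, open bars genes under 100 reads, and the dotted line marks 1.5-fold. A gene outside the list and directly beside the group passes 1.5-fold on scaffolds 14, 25, 119 and 149 and at 1 of the 2 groups on scaffold 154, and none does at the other 5 groups.

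In length the raised genes differed little from the tested genes. Their median length was 1457 bases, against 1584 over tested genes. The share of their span listed as a cytosine of either strand in the FLM bisulfite library had a median of 50.0% against 49.5%. That share counts only positions with reads, so it can fall below the content of cytosine plus guanine. Genes whose length equals their span, and that therefore have no intron listed, made up 38 of the 150 (25.3%), where the background was 12.8%. Expression level moved with this: among the 25% of tested genes with the lowest untreated level per kb, 27 of 97 raised genes (27.8%) had no intron listed, against 23.5% of all genes in that class.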

How the data were processed

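The RNA tables hold raw read counts per gene and per repeat, deposited by the authors, who aligned 50-nt reads with TopHat (TopHat2 2.0.4 in the submitters' processing notes) and counted unique alignments within a single feature with HTSeq 0.5.4p3. RPKM columns were not used, since gene lengths differ between the gene tables. The bisulfite files hold methylated and total read counts and their fraction for each cytosine, deposited by the authors from BS Seeker alignments to Tuber_melanosporum_v1.0. Levels were recomputed from the counts. Positions in FB, FLM and ECM count from 0 and were shifted by 1. Gene coordinates came from RefSeq ASM15164v1 for 7420 of 7496 genes, with scaffolds from the gene tables. A G at the third base with neither C nor G before it, as in a start codon, opened 1665 genes and stood at the end of 753.

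The genes were chosen, and the lists fixed, with earlier results of these data known. Gene names in the text follow a fixed rule: the 20 largest ratios, the 5 most read genes, 3 inside and 3 outside the end of the list, the methylation machinery, the 5 highest untreated body CG levels, the 5 largest falls and gains of flank CHH, genes next to each other or overlapping a TE. The others named were chosen after their values were seen. Protein and promoter features and lists by product name were not analysed here, and 1 gene is not reported. With 1 library per group no test was made. Ratios carry exact conditional binomial intervals and shares exact Clopper-Pearson ones, at 95%. The selection was tested on simulated data. Python 3.11.15, numpy 2.4.6, pandas 2.3.3, scipy 1.17.1 and matplotlib 3.10.9 were used.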

Additional observations from a re-analysis of the deposited data

How the results depend on the processing

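Of 114 alternatives, 90 left a result within its interval or within 1.5 times of its count. Of the 150 genes, 83 stayed in the list without the FB and FLM windows, and between 112 and 143 under the other choices of scaling, added constant, minimum count or scaffolds. With 0.1 in place of 1 added to each level the median log2 ratio was 1.35, against 1.25. With repeat reads in the total, the 150 genes took 2.67% in treated mycelium, 1.31% in FB, 1.03% in FLM and 0.962% in untreated mycelium. At a minimum of 10 reads the median body levels were 0.373% CG, 0.337% CHG and 0.319% CHH in untreated and 0.328% CHH in treated mycelium, the median CG difference was -0.035 points, and pooled reads gave 0.287% CHH in untreated mycelium. Flanks of 0.5 kb gave medians of 0.360% CG and 0.258% CHG in treated and 0.249% CHG and 0.280% CHH in untreated mycelium, and flanks of 2 kb 0.357% CG in treated mycelium and 0.282% CHH in FLM. Classified TEs overlapped 1 gene, lay within 0.5 kb of 8 and within 2 kb of 34, and any repeat lay within 1 kb of 33. Within 10 genes, 52 genes had another of the list. Among genes within the windows the median length was 1624 bases. The counts near a TE or near another gene of the list change with distance by definition. So do the shares with a larger read total and the ratios with a smaller added constant. The cause of the other shifts was not tested. No paired analysis was possible because each condition has 1 library, and no library could be left out. The 10-read minimum gave no ECM values for comparison. At a depth of about 8 reads per cytosine in the treated and untreated libraries, differences under 1 point in a gene rest on few methylated reads.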
